A study of Mus musculus with 2 samples.

Results

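The carboxylesterases of families 1, 2 and 3 were described in cultured mouse hepatocytes treated with pregnenolone 16α-carbonitrile (PCN). The 9 genes were chosen by symbol: Ces1c, Ces1d, Ces1e, Ces1f and Ces1g of family 1, Ces2a, Ces2c and Ces2e of family 2, and Ces3a of family 3. Of these, 7 had a named probe set among the 15644 genes of the table, and Ces2c and Ces3a were not analysed here, so family 3 has no value. PCN, a man-made steroid, is the classic rodent agonist of PXR, the pregnane X receptor, which is a nuclear receptor controlling drug metabolism genes in liver. Primary hepatocytes, liver parenchymal cells freshly isolated from the organ, were taken from a C57BL/6 male (9 weeks old) and spent 24 h in culture. Treatment was with 10 µmol/l PCN, or with dimethyl sulfoxide (DMSO) as vehicle, for 12 h. RNA of 3 samples was pooled for each group and hybridised to 1 Affymetrix array. The data were thus 2 arrays, 1 with PCN and 1 with DMSO, and the labels name a single mouse. Since there is no replicate, no difference was tested, and "higher" and "lower" describe these 2 arrays.

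Carboxylesterases are serine hydrolases, most of them held in the endoplasmic reticulum, that split ester, thioester and amide bonds. In liver they convert ester drugs and prodrugs into acids and alcohols, and several also hydrolyse stored triglyceride and cholesteryl ester. The mouse genome carries many tandem copies of families 1 and 2 where the human genome has only CES1 and CES2 as the main liver enzymes, so mouse members differ in tissue, substrate and control. The symbol Ces3 is an older name of both Ces1d and Ces3a, Ces6 of Ces2a and Ces5 of Ces2e. Among RefSeq genes (assembly GRCm38.p6), the 20 carboxylesterase entries, 1 of them a pseudogene, all lie on chromosome 8. Ces1a to Ces1h follow each other without another protein-coding gene between them and are followed by Ces5a. A further 68 protein-coding genes separate Ces5a from Ces2a, and the family 2 genes, Ces3a, Ces3b and Ces4a then follow as a second uninterrupted row.

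The intensities of the 2 arrays had medians of 14.1 with PCN and 14.4 with DMSO over all probe sets. A gene counted as measured where its intensity reached 32 (5 on the log2 scale) in 1 or both arrays, which 6449 genes did. The difference was log2 intensity with PCN minus that with DMSO, and 1.5-fold was the size used for counts. Over the measured genes its median was 0.03, with 57.6% higher and 42.4% lower with PCN. The 40 bacterial and phage control probe sets, which carry RNA added from outside, differed by -0.03 ± 0.10 (mean and SD over probe sets), from -0.33 to 0.16. Several of these probe sets read the same added RNA, and their range holds no spread between cultures. Of the measured genes, 27.3% lay outside that range, 21.7% above it and 5.61% below it. Of 10 hepatocyte markers, 7 had a probe set and all 7 were measured. Their median difference was -0.02, which turned positive when centred on the control probe sets. Of the 7, 2 were higher and 5 lower. Alb, the gene of serum albumin, stood at 21383 with PCN and 21685 with DMSO. Hnf4a, a transcription factor of hepatocytes, differed by -0.21. Ttc36, a gene expressed mainly in liver and kidney, was at 34.3 with PCN and 74.7 with DMSO, 2.17-fold lower. Its PCN value lay just above the floor of 32. It was the only marker of the 7 past 1.5-fold, beside 1.94% of all measured genes. Markers of other liver cells were mostly under the floor. Measured were 1 of 10 Kupffer cell and leukocyte, 2 of 10 stellate cell, 2 of 8 endothelial and 2 of 7 bile duct markers. Some stood well above the floor. Cd68 of Kupffer cells and leukocytes was at 1626 with PCN and 1690 with DMSO, and Dcn of stellate cells at 313 and 351. Of the bile duct markers, Krt19 was at 223 with PCN and 169 with DMSO, and Sox9 at 95.2 and 127. In such pooled RNA, fewer cells of a type and less RNA per cell cannot be told apart.

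Of the 7 carboxylesterases with a probe set, 4 were measured, namely Ces2a, Ces2e, Ces1c and Ces1d, and 1 of them, Ces2a, passed 1.5-fold. Over all measured genes, 1.94% passed 1.5-fold in either direction and 0.636% did so with PCN higher. Of the 4, Ces2a and Ces1d were higher with PCN and Ces2e and Ces1c lower. At 1.2-fold the count was 2, Ces2a and Ces1d, beside 18% of all measured genes. With so few members, the counts stand only as a description.

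Ces2a encodes a family 2 carboxylesterase of liver and intestine that also acts on acylglycerols, and it is among the known PXR target genes of mouse liver. Its intensity was 978 in the PCN array and 591 in the DMSO array. The PCN array was therefore higher, by 0.73 on the log2 scale or 1.65-fold. That difference was above the whole range of the control probe sets. Of 6449 measured genes, it ranked 20 from the highest, and 1.02% of measured genes had a difference at least as large in either direction. Ces2a did not reach 2-fold, a size that 0.326% of measured genes passed in either direction.

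Ces2e, a family 2 carboxylesterase close to Ces2a in the same gene row, lay the other way. Its intensity was 209 in the PCN array and 247 in the DMSO array, a difference of -0.24, or 1.18-fold lower with PCN. This lay within the range of the control probe sets, and 10.3% of measured genes had a lower difference. The differences of Ces2a and Ces2e were thus 0.97 apart on the log2 scale, the widest gap between any 2 of the measured carboxylesterases. Family 2 probes may also read relatives, and how much they do so was not tested.

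The start regions of Ces2a and Ces2e are shown because these genes of the same row stood at opposite ends of the family's differences. Each is the RefSeq window of 250 bases before and 50 bases after the annotated start in GRCm38.p6, on the plus strand, at chr8:104733753-104734052 for Ces2a and chr8:104926010-104926309 for Ces2e. Capitals mark the longest run of bases that the 2 windows have in common.
Ces2a: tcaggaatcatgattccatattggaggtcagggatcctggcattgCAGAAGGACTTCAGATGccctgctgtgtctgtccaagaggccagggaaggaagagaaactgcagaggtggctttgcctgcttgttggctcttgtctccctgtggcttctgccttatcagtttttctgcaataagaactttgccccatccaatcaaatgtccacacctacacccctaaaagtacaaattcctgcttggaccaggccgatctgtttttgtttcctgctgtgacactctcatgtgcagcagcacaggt
Ces2e: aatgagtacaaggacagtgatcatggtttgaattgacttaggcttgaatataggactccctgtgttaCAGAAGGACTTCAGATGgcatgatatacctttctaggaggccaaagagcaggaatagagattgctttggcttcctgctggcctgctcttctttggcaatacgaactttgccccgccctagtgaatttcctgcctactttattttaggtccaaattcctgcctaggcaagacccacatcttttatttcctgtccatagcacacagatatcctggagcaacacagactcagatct
The shared run is 17 bases long and begins 205 bases before the start of Ces2a and 183 bases before that of Ces2e. Over the 6 pairs among the windows of Ces2a, Ces2c, Ces2e and Ces2g, the longest shared run had 9 to 19 bases, with a median of 12. Over the 16 pairs of 1 of these with the window of Ces1c, Ces1e, Ces1g or Ces1h it had 7 to 11 bases, with a median of 8. The run of 19 bases belonged to Ces2c and Ces2g.

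PXR binds as a dimer to pairs of a hexamer close to AGTTCA or AGGTCA. The hexamer AGGTCA was found once in the Ces2a window, on the plus strand 226 bases before the start, and not in the Ces2e window. The Ces4a window also held it, on the minus strand. On either strand AGGTCA is held by 16.3% of the 32851 promoter windows of that length, so a match is common. AGTTCA, held by 14.0% of windows, was found in neither the Ces2a nor the Ces2e window. Of the pairs, the direct repeats AGNTCANNNAGNTCA and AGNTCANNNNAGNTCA and the everted repeat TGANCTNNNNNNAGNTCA were searched on both strands. They were in 0.0700%, 0.125% and 0.0304% of all windows and in none of the windows of Ces1c, Ces1e, Ces1g, Ces2a, Ces2c and Ces2e, the 6 of the 9 genes with a window. Such a search says nothing about sites outside these windows, or about pairs of other spacing or with less exact hexamers inside them. CCAAT, found in 37.4% of windows, was in the Ces2a window 58 bases before the start and also on the minus strand 231 bases before it. It was not in the Ces2e window, but the windows of Ces1c, Ces1g, Ces2c and Ces2g also held it.

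**Figure D1:**
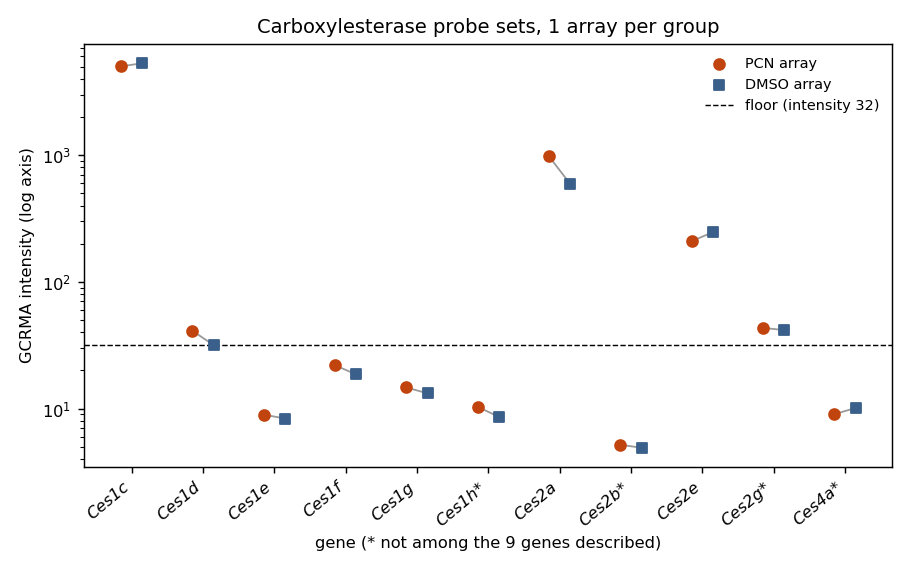
GCRMA intensity (log axis) of each carboxylesterase probe set in the PCN array (circles) and the DMSO array (squares), with a dashed line at the floor of 32; an asterisk marks genes outside the 9. Ces2a shows the clearest step, 978 with PCN and 591 with DMSO, whereas 6 of the 11 probe sets lie under the floor in both arrays; heights of different probe sets are not comparable.

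Ces1c encodes a carboxylesterase that mouse liver secretes into plasma, where it hydrolyses circulating esters. Its intensity was 5009 in the PCN array and 5311 in the DMSO array. The difference of -0.08, 1.06-fold lower with PCN, lay within the range of the control probe sets, with 25.8% of measured genes lower still. Array signal can be compressed at high intensity, and its part here was not tested.

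Ces1d encodes triacylglycerol hydrolase, an enzyme of the endoplasmic reticulum that mobilises stored triglyceride for very low density lipoprotein (VLDL) in liver and is also abundant in fat cells. Its intensity was 41.2 in the PCN array and 31.7 in the DMSO array, the DMSO value just under the floor. With DMSO raised to the floor, PCN was at least 1.29-fold higher (0.37 on the log2 scale). As deposited, the values were 1.30-fold apart. The difference was above the range of the control probe sets and ranked 245 from the highest of 6449, but both intensities were near the floor. Of 4 adipocyte markers, 2 had a probe set. Fabp4, a fatty acid binding protein of fat cells and other cells, stood at 1548 with PCN and 1349 with DMSO, 0.20 higher. Adipoq, the adipocyte-secreted hormone adiponectin, was under the floor at 4.08 with PCN and 3.50 with DMSO.

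In both arrays Ces1e, Ces1f and Ces1g lay under the floor, and no fold is given for them. Ces1e, or egasyn, which holds β-glucuronidase in the endoplasmic reticulum, stood at 8.96 with PCN and 8.35 with DMSO. Ces1f, a relative of triacylglycerol hydrolase also called TGH-2, stood at 22.0 with PCN and 18.6 with DMSO. Ces1g, a lipid hydrolase known for its part in hepatic triglyceride control, stood at 14.7 with PCN and 13.2 with DMSO. All 3 values were higher with PCN as deposited. Among the 9195 genes under the floor in both arrays, 51.1% were higher with PCN, and the 5th to 95th percentile of their differences ran from -0.34 to 0.31. The differences of Ces1e, Ces1f and Ces1g, at 0.10, 0.24 and 0.16, lay inside that span.

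Family 2 was set against families 1 and 3, as the choice of genes asked. The measured members were Ces2a and Ces2e on the family 2 side and Ces1c and Ces1d on the other, each with 1 gene higher and 1 lower. The median difference was 0.24 for the Ces2 genes and 0.14 for the Ces1 genes, 0.10 apart. This gap is smaller than the 0.97 between Ces2a and Ces2e and the 0.45 between Ces1d and Ces1c. It turned to -0.38 without Ces2a and was 0.59 without Ces2e, so the 2 families were not separated in these arrays. With Ces2g, a further family 2 gene in the table, included, the gap was -0.085.

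Besides the 9 genes, the table held Ces1h, Ces2b, Ces2g and Ces4a. Ces2g was measured, at 43.3 with PCN and 41.6 with DMSO, a difference of 0.06 inside the range of the control probe sets. Ces1h stood at 10.3 with PCN and 8.58 with DMSO, Ces2b at 5.18 with PCN and 4.90 with DMSO, and Ces4a at 9.04 with PCN and 10.1 with DMSO, all under the floor. Over the 5 measured carboxylesterases of the table, 3 were higher and 2 lower with PCN, beside 57.6% and 42.4% of all measured genes. Their median difference was 0.06, beside 0.03 for all measured genes.

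**Figure D2:**
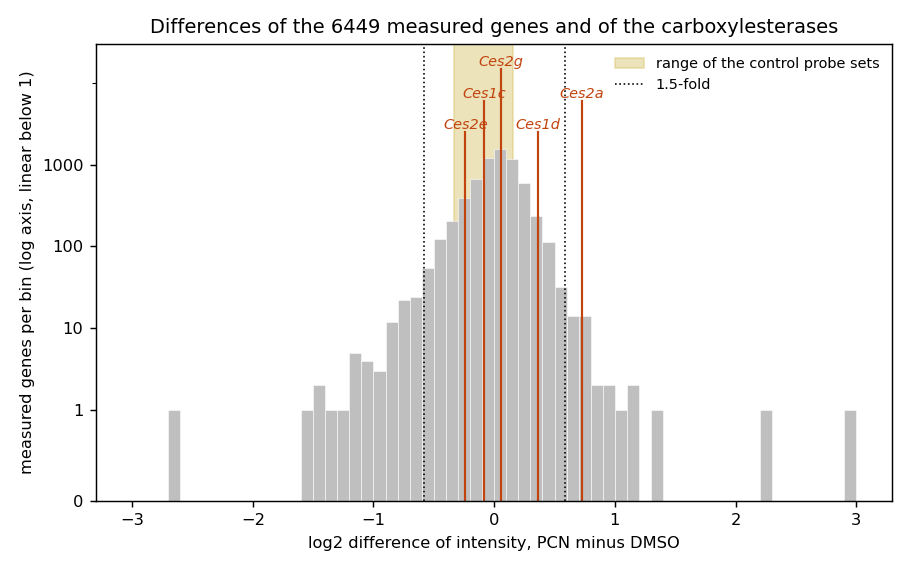
Number of measured genes in bins of 0.1 of the log2 difference (PCN minus DMSO; log vertical axis), with the range of the control probe sets shaded, 1.5-fold dotted, and the 5 measured carboxylesterases as vertical lines. Ces2e, Ces1c and Ces2g lie inside the shaded range, Ces1d lies above it and Ces2a lies beyond 1.5-fold.

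The measured genes most like Ces2a were found by Euclidean distance over the pair of log2 intensities, leaving out carboxylesterases. They were Cyp2c29, a cytochrome P450 of the CYP2C family, at a distance of 0.18, Hmga2, an architectural chromatin protein, at 0.21, and Mal2, a membrane traffic protein, at 0.24. Cyp2c29 had 1059 with PCN and 650 with DMSO. Hmga2 had 977 with PCN and 510 with DMSO, and Mal2 had 932 with PCN and 692 with DMSO. The nearest to Ces2e were Fbxl4, a mitochondrial F-box protein, at 0.02, Fcgrt, the neonatal Fc receptor, at 0.02, and Birc3, an inhibitor of apoptosis, at 0.04. With 2 arrays, this likeness means only a similar intensity and a similar step.

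Other enzymes that split esters, amides, lactones and epoxides stood mostly lower with PCN. Of 20 measured genes, 5 were higher and 15 lower, beside 57.6% and 42.4% of all measured genes. Their median difference was -0.13, beside 0.03 over all measured genes. None was 1.5-fold higher, beside 0.636% of all measured genes, and 2 were 1.5-fold lower, beside 1.30% of all measured genes. These were Faah, which degrades fatty acid amides, at 38.6 with PCN and 59.8 with DMSO, and Siae, a sialic acid esterase, at 33.5 with PCN and 50.7 with DMSO. Bche, the butyrylcholinesterase of plasma, was 1.46-fold lower, and Acot8, a peroxisomal acyl-CoA thioesterase, was 1.31-fold lower. Faah, Siae and Bche were close to the floor in the PCN array. A few members were named after their values were seen. Aadac, arylacetamide deacetylase, stood at 858 with PCN and 927 with DMSO, and Ephx1, microsomal epoxide hydrolase, at 6583 with PCN and 6878 with DMSO. Both lay within the range of the control probe sets, as did Nceh1, neutral cholesterol ester hydrolase, at 72.5 with PCN and 81.6 with DMSO, and Pon1, the paraoxonase of plasma lipoproteins, at 3407 with PCN and 3300 with DMSO.

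Genes of triglyceride lipolysis, lipid droplets and VLDL assembly are the setting in which Ces1d works. Of 19 measured, 6 were higher and 13 lower with PCN, beside 57.6% and 42.4% of all measured genes. Their median difference was -0.07, beside 0.03 over all measured genes. With values under the floor raised to it, none of the 19 passed 1.5-fold, beside 1.94% of all measured genes. G0s2, an inhibitor of adipose triglyceride lipase, was 1.24-fold lower, and Lipa, lysosomal acid lipase, was 1.23-fold lower. Tm6sf2, which takes part in VLDL lipidation, was 1.22-fold lower. Plin5, a lipid droplet protein, stood at 24.4 with PCN and 39.7 with DMSO and was at least 1.24-fold lower. As deposited its difference was -0.70, past 1.5-fold. The same held for Mgll, monoacylglycerol lipase, named after its values were seen, at 24.9 with PCN and 37.7 with DMSO, whose deposited difference was -0.60. Also chosen after their values were seen, Mttp, which loads lipid onto apolipoprotein B, differed by -0.07 and Apob by -0.05.

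Nuclear receptors and liver factors stood mostly lower: 13 of the 17 measured genes were lower and 4 higher, beside 42.4% of all measured genes lower, and the median was -0.12. Cebpa, which encodes the liver-enriched factor C/EBPα, was 1.82-fold lower and the only one of the 17 past 1.5-fold, beside 1.30% of all measured genes lower by that size. Ppara, the fatty acid receptor, was 1.42-fold lower, Nr5a2, which acts in bile acid synthesis, 1.28-fold lower, and Nr1h4, the bile acid receptor FXR, 1.27-fold lower. Nr1i2, the gene of PXR itself, named after its values were seen, was at 70.1 with PCN and 71.9 with DMSO. The other known PXR target genes had a median difference of 0.21. PCN was higher in 13 of the 18 measured genes, and 4 of the 18 were 1.5-fold or more higher, beside 57.6% and 0.636% of all measured genes. These 4 were Cyp3a25 at 7.82-fold, Gstm3 at 2.47-fold, Cyp3a11 at 1.87-fold and Cyp2c29 at 1.63-fold. Abcb1a, a drug efflux pump named after its values were seen, stood at 44.2 with PCN and 17.5 with DMSO, under the floor, so the floor left it out of the 4. Its deposited difference was 1.34. The 1.65-fold of Ces2a thus lay between those of Cyp2c29 and Cyp3a11. The list was chosen with earlier results of these arrays known and is not independent evidence of its direction.

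**Figure D3:**
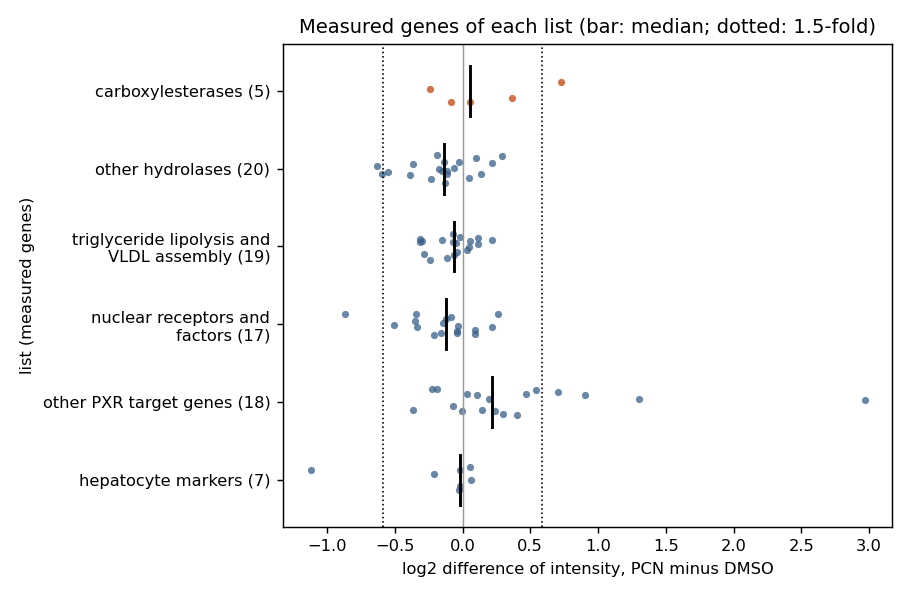
Log2 difference (PCN minus DMSO) of each measured gene of the carboxylesterases and of 5 other lists; each point is a gene, the bar is the median and dotted lines mark 1.5-fold. The carboxylesterases spread from -0.24 to 0.73 around a median of 0.06, and the other hydrolases lie lower, around -0.13.

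The steps of single carboxylesterases depended little on the scaling. Over 7 other floors and scalings, Ces2a kept a difference of 0.69 to 0.76, or 1.61-fold to 1.69-fold, always past 1.5-fold. Ces2e stayed between -0.29 and -0.21 and Ces1c between -0.12 and -0.05. Ces1d ran from 0.33 to 0.40 wherever it was measured, and with a floor of 6 it was not. These settings share the same 2 arrays, so they carry no information on the spread between cultures. The floors could not change Ces2a, Ces2e or Ces1c, which lie above all of them, and each centring shifts all genes alike.

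**Figure D4:**
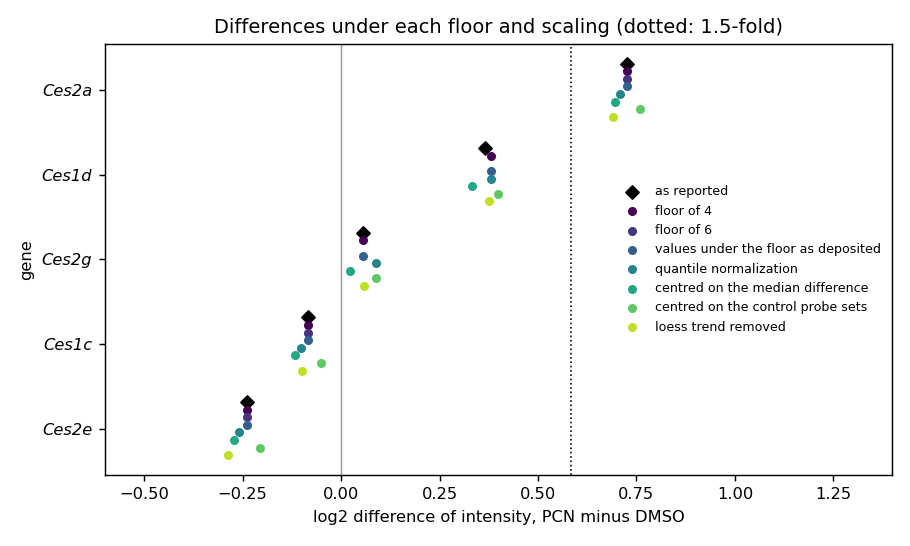
Log2 difference (PCN minus DMSO) of the 5 measured carboxylesterases as reported (diamonds) and under each other floor or scaling (circles), with 1.5-fold dotted. Ces2a stays between 0.69 and 0.76 and is the only gene to the right of the dotted line; none of the 5 changes sign.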

How the data were processed

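Each group was measured on 1 one-colour Affymetrix array, from biotin-labelled cRNA made of 5 µg of pooled RNA, per the labels' protocols. The deposited table holds intensities on a linear scale (1.13 to 28482), made with GCRMA 2.2.0 per the submitters' processing notes. This method corrects background from probe sequence, normalizes arrays to each other and summarises each probe set, so these values cannot show a change in the total RNA of a cell. The probe set definition and build were not given in the sources used here.

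Of 16395 probe sets, 15644 had 1 gene symbol in the platform annotation, never more than 1 probe set per gene, 64 were Affymetrix controls and 687 were unnamed here. Of the named, 15617 Entrez numbers matched RefSeq (GRCm38.p6) with the same symbol. Python 3.11.15 with numpy 2.4.6 and pandas 2.3.3 gave the log2 values. Values under the floor of 5 were raised to it, so such a fold is a lower bound. With 1 array per group no test, SE or p-value was computed; precision is limited by the number of arrays. The procedure was tested on simulated data with changes planted only in genes well above the floor, so genes near the floor were not covered. The simulated noise was a fixed setting, so it carries no information on the spread between cultures. Named genes were all carboxylesterases in the table, the 4 measured genes of each list with the largest difference (given in the text for the 4 lists beside the cell markers), and the 3 nearest neighbours of the highest and lowest member. The members and lists were chosen with earlier results of these data known. The alternatives were other floors, scalings (loess by statsmodels 0.14.6, fraction 0.3) and thresholds. No batch label was used, and batch and treatment cannot be told apart here.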

Additional observations from a re-analysis of the deposited data

How the results depend on the processing

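With 1 array per group, no replicate could be left out. No paired analysis was possible because there was 1 sample per group. The alternatives were a floor of 4 or 6, low values as deposited, centring on the control probe sets or the median, quantile normalization, a loess trend removed, and other thresholds or members. Of 33 recomputed differences of measured carboxylesterases, 33 moved by less than the SD of the control probe sets (0.10). Many of them could not have moved by more. The floors leave genes above them unchanged. Centring shifts every gene alike, by -0.03 for the median and 0.03 for the control probe sets. The count past 1.5-fold stayed at 1 under every floor and scaling. It was 2 at 1.2-fold, beside 18% (1161) of all measured genes, and 0 at 2-fold, beside 21 of all measured genes. The gap between family 2 and families 1 and 3 moved by more: 0.33 with a floor of 6, -0.38 without Ces2a, 0.59 without Ces2e and -0.085 with every family gene in the table. The last of these, and all members as deposited (0.087), were chosen after seeing the data. The gap was 0.0021 with a floor of 4 and 0.064 with a loess trend removed, both moves under the SD of the control probe sets. Of 79 list medians, 3 moved by more than that SD: endothelial markers to 0.18 with a floor of 4, and, without a floor, Kupffer cell markers to 0.11 and bile duct markers to 0.16, since these settings add dim genes. Under each scaling, the median of all measured genes shifted by less than 0.1. Signal near the floor limits Ces1d and Ces2g.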
